A study of Arabidopsis thaliana with 15 samples.

Results

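The cytosolic ribosomal protein genes described here are 40 Arabidopsis thaliana loci that encode 19 proteins, 16 loci for 8 proteins of the small (40S) subunit and 24 loci for 11 proteins of the large (60S) subunit. They were named as a list of loci by a rule that holds no expression value, though earlier results of these data were known when it was made. All 40 were among the 27981 loci measured. Of the 19 proteins, 16 were represented by more than 1 locus, which are paralogs of one another, and 3 by a single locus (L3, S3 and S15A). A RefSeq gene table gave 20 of the loci a ribosomal protein name. For the other 20 the protein to which each belongs was taken from established Arabidopsis nomenclature rather than from that table. Loci without a symbol in the table are called by their locus identifiers.

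Ribosomes translate all cellular messenger RNA, and their assembly is among the costliest activities of a growing plant cell. The 40S subunit decodes the message and the 60S subunit joins amino acids. Nearly every plant ribosomal protein is encoded by a small family of paralogs, whose proteins are near-identical, and mutants in single paralogs range from no visible phenotype to pointed leaves or arrested embryos. Expression of the families is known to be high in dividing and growing tissue and to respond to the TOR kinase, sugar, stress and abscisic acid (ABA), a hormone that acts in maturing seeds and under drought.

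Whole seeds of the Col-0 ecotype were chilled for 72 h at 4 °C, germinated at 22 °C in constant white light and taken when the radicle had emerged. They were then held in 10 µM ABA in the dark at 20 °C for 0, 2, 12, 24 or 72 h. Each time had 3 arrays, 15 in all, and each array held RNA from its own pool of seeds harvested in bulk from at least 2 plants, so that p-values measure the spread between pools. The series title places the course in the recovery of desiccation tolerance. The seeds at 0 h were the common baseline. No seeds kept without ABA over these times were analysed here, so ABA, elapsed time, darkness and the change of temperature cannot be told apart. Because whole seeds were measured, fewer cells of a type and less RNA per cell cannot be told apart either. Levels are log2 RMA values, and a difference of -1 on this scale means that 50% of the signal remains. Genes are compared by their changes and not by their levels, except that signal rank is used once to form a comparison group.

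The array of 2 h replicate 2 stood apart from the rest. Across loci its correlation with the other arrays of 2 h was 0.889 and 0.901, while all other pairs of arrays of 1 time correlated at 0.986 to 0.995. Its values were also less spread, with an interquartile range over all probe sets of 2.93, against 3.67 to 4.01 on the other arrays. Its median over all loci was 4.96, against 5.17 to 5.34. Counts of members and of paralog pairs called that move by more than 1.5 times without it are given both ways. ABA response genes rose in 5 of 5 cases at 2 h and at every later time, with the late embryogenesis gene EM1 at 6.33 ± 0.20 (adjusted p = 3.16e-11) at 2 h. Seed storage and oil body markers rose in 3, 3, 4 and 3 of 7 cases at 2, 12, 24 and 72 h. Their median change at 2 h was 2.31 with all arrays and 0.42 without 2 h replicate 2. At 72 h the means of CRU2 (3.63), SESA1 (5.24) and SESA2 (3.91) lay below those of 0 h (4.48, 5.81 and 5.32). None of these markers was called lower with all arrays, and 1 was at 72 h without 2 h replicate 2. With every array centred to a common median, the median of all loci shifted by 0.12 for 2 h against 0 h and by -0.17 for 12 h against 2 h.

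The ribosomal protein genes declined, with the largest median falls at 24 h and 72 h, and none of the 40 was called higher than at 0 h at any time. Their median change from 0 h was -0.16 at 2 h, -0.18 at 12 h, -0.45 at 24 h and -0.59 at 72 h, while the median of all loci was 0.11, -0.04, 0.00 and -0.02. On a linear scale the median member stood at 73.2% of its 0 h signal at 24 h and at 66.5% at 72 h. The steepest decline, in a gene for S21, left 44.1% at 72 h. Array by array, the median change of the 40 loci from their 0 h means was -0.08, -0.26 and -0.03 at 2 h, -0.19, -0.16 and -0.26 at 12 h, -0.40, -0.51 and -0.46 at 24 h, and -0.60, -0.56 and -0.54 at 72 h. The arrays of 24 h and 72 h all lay below every array of 0 h, 2 h and 12 h. Without 2 h replicate 2 the 2 h median was -0.05 for the members and 0.01 for all loci.

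Calls were made with limma at an adjusted p under 0.05, with p-values adjusted over all 27981 loci. No member rose, whereas 6.95%, 13.3%, 17.4% and 18.4% of all loci rose at 2, 12, 24 and 72 h. At 2 h no member was called, against 15.8% of all loci called and 8.89% that fell, and 3 members had an unadjusted p under 0.05. At 12 h 5 members fell, or 12.5% of them, against 11.7% of all loci that fell. At 24 h 26 members fell, or 65% of them, against 19.1% of all loci, and at 72 h 26 again, against 20.2%. The call was made at both times for 24 members, at 24 h and not 72 h for RP1 and RPL27AB, and at 72 h and not 24 h for RPS5A and AT4G29410. Over the whole course the moderated F test called 25 members, 62.5%, against 44% of all loci.

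The probe sets of 39 of the 40 members were among the brightest 10% of loci by mean signal, AT1G33120 being the exception, which describes probe signal and not transcript number. Among the 2799 loci of that brightest 10%, a comparison group chosen after the data had been seen, 11% fell at 12 h, 28.3% at 24 h and 32.5% at 72 h. Their median changes were -0.03, -0.07 and -0.09 at those times. Changes were moderate in size: 1 member at 24 h and 3 members at 72 h changed by at least 1, or 2.5% and 7.5% of the members, against 17.5% and 19.2% of all loci. All 3 arrays lay below all 3 arrays of 0 h in 30 members at 12 h, 34 at 24 h and 31 at 72 h, against 25.7%, 29% and 30% of all loci. Time means were highest at 0 h for 33 of the 40 members and lowest at 72 h for 26. The shares of all loci for these 2 counts are not given here, so the counts only describe the members.

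The median change of the members was -0.09 for 12 h against 2 h, -0.24 for 24 h against 12 h and -0.04 for 72 h against 24 h. In the middle step 3 members were called, all of them lower at 24 h, against 3.81% of all loci. They were AT3G53890 at -0.63 ± 0.17 (adjusted p = 0.0424), RPL10B at -0.60 ± 0.17 (adjusted p = 0.0467) and RPL5B at -0.47 ± 0.12 (adjusted p = 0.0374). Their number ranged from 0 to 15 when single arrays were left out. It was 15 without 2 h replicate 2, all of them lower. Those 15 are 37.5% of the members, against 21.3% of all loci called in either direction in that fit. The number was 5 without replicate 1 or replicate 3 of 2 h and at most 1 without any array of another time. At 24 h against 12 h 6.56% of all loci were called in either direction. At 12 h against 2 h no member was called by limma, against 4.89% of all loci, with 3 at an unadjusted p under 0.05 and 2 called without 2 h replicate 2, AT4G10450 and AT3G53890, when 15.3% of all loci were called. At 72 h against 24 h again none was called, against 3.32% of all loci, with 2 at an unadjusted p under 0.05.

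**Figure D1:**
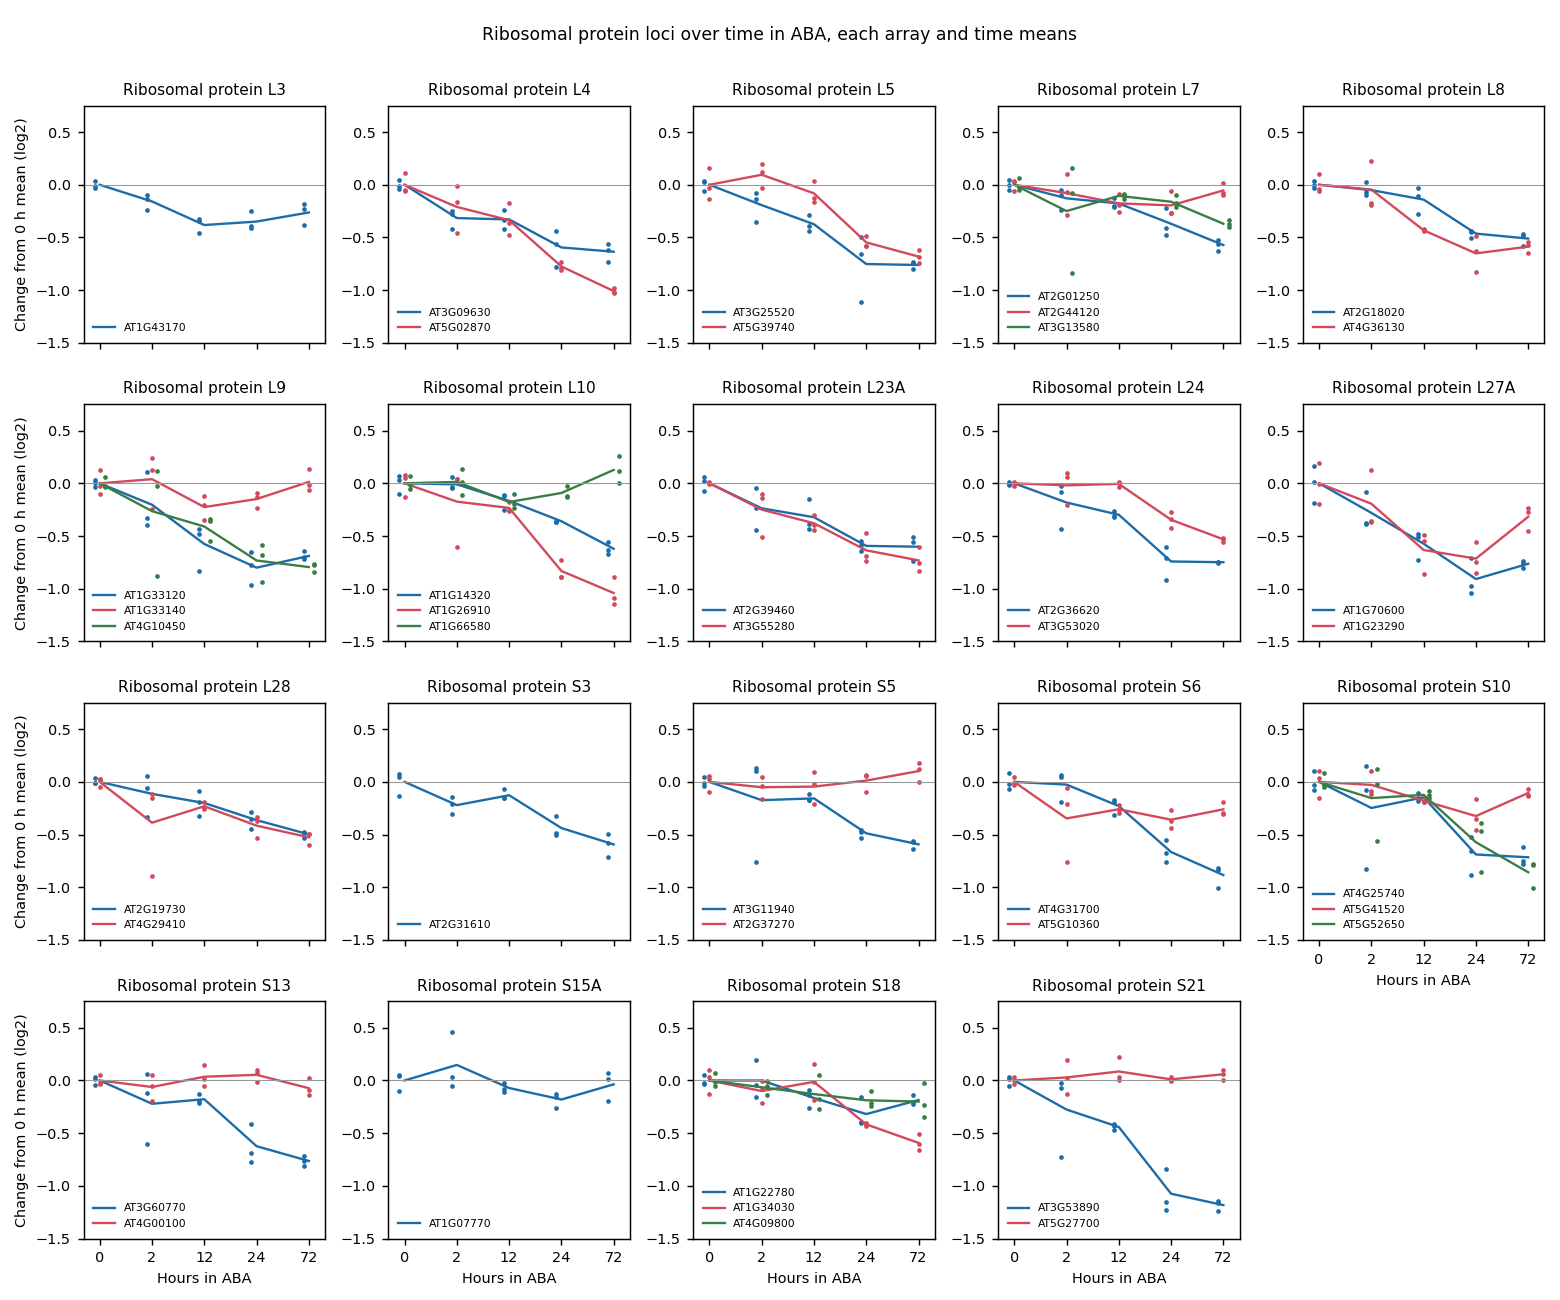
Change of each of the 40 loci from its mean at 0 h (log2, vertical axis) at 0, 2, 12, 24 and 72 h in ABA (horizontal axis, evenly spaced), 1 panel per ribosomal protein. Points are single arrays and lines join the means of 3 arrays; in the panels of S21, L10 and S13 the lines of paralogs separate by 24 h and 72 h.

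Both subunits took part. At 24 h 7 of 16 members of the 40S and 19 of 24 of the 60S fell, with medians of -0.39 and -0.57. At 72 h the counts were 8 of 16 and 18 of 24, with medians of -0.43 and -0.59. The difference between subunits was not tested. At 72 h, of the 16 proteins with paralogs here, 6 had every member fall, 10 had some members fall and none had no member fall. A call in one gene and none in its paralog does not show that the 2 changed unequally. In L27A, for example, 1 of 2 genes was called, and the limma test of their difference was not (adjusted p = 0.0613). The pairs are tested below. The spread of the change across members, as a standard deviation, was 0.12, 0.16, 0.27 and 0.33 at 2, 12, 24 and 72 h.

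The 6 proteins whose members all fell at 72 h belong to the 60S subunit. L4, which lines the exit tunnel for the nascent chain, showed one of the 3 largest falls of the list. Its gene AT5G02870 measured 10.76, 10.92 and 10.75 at 0 h, 10.80, 10.35 and 10.65 at 2 h, 10.64, 10.45 and 10.33 at 12 h, 10.02, 10.00 and 10.08 at 24 h and 9.83, 9.79 and 9.78 at 72 h. The arrays at 24 h and 72 h lay below every earlier array, and those at 72 h below those at 24 h. The change was -0.78 ± 0.14 (adjusted p = 0.000433) at 24 h and -1.01 ± 0.14 (adjusted p = 4.30e-05) at 72 h, when 49.7% of the 0 h signal remained. Its paralog AT3G09630 changed by -0.59 ± 0.12 at 24 h and -0.64 ± 0.12 at 72 h and was called at both.

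L5, which carries the 5S ribosomal RNA into the ribosome, fell through both its genes. ATL5 changed by -0.75 ± 0.15 at 24 h and -0.76 ± 0.15 at 72 h, and RPL5B by -0.55 ± 0.12 and -0.68 ± 0.12. Both L23A genes fell too. L23A sits at the mouth of the exit tunnel, where factors that target nascent proteins bind. RPL23AA measured 10.08, 10.12 and 9.99 at 0 h, 9.83, 9.62 and 10.02 at 2 h, 9.67, 9.91 and 9.63 at 12 h, 9.51, 9.42 and 9.47 at 24 h and 9.32, 9.50 and 9.55 at 72 h. RPL23AB measured 10.33, 10.35 and 10.34 at 0 h, 10.24, 9.83 and 10.20 at 2 h, 9.95, 10.04 and 9.90 at 12 h, 9.87, 9.65 and 9.60 at 24 h and 9.51, 9.74 and 9.58 at 72 h. In both genes the 12 h, 24 h and 72 h arrays lay below all 0 h arrays. The changes at 72 h were -0.60 ± 0.13 (adjusted p = 0.00245) for RPL23AA and -0.73 ± 0.14 (adjusted p = 0.000653) for RPL23AB.

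L24, L28 and L8 completed the group. The L24 genes are RPL24A and STV1, the second known from a mutant with short fruit valves and for its part in reinitiation of translation after upstream reading frames. RPL24A changed by -0.74 ± 0.13 at 24 h and -0.75 ± 0.13 at 72 h, and STV1 by -0.35 ± 0.12 and -0.53 ± 0.12. The L28 genes AT2G19730 and AT4G29410 changed by -0.50 ± 0.13 and -0.53 ± 0.17 at 72 h. The L8 genes EMB2296, required for embryo development, and AT4G36130 changed by -0.51 ± 0.11 and -0.59 ± 0.14. All 6 fell at 72 h, and AT4G29410 was not called on leaving out any single array of 0 h or 72 h (highest adjusted p = 0.0801).

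Both genes for L27A, a protein of the 60S subunit, fell by 12 h. AT1G70600 measured 10.10, 10.25 and 9.90 at 0 h, 10.00, 9.71 and 9.70 at 2 h, 9.57, 9.60 and 9.36 at 12 h, 9.38, 9.04 and 9.11 at 24 h and 9.33, 9.35 and 9.28 at 72 h. RPL27AB measured 9.67, 10.06 and 9.86 at 0 h, 9.50, 9.99 and 9.51 at 2 h, 9.32, 9.37 and 9.00 at 12 h, 9.31, 9.12 and 9.01 at 24 h and 9.41, 9.63 and 9.59 at 72 h. In both genes all arrays of 12 h, 24 h and 72 h lay below all of 0 h, and in RPL27AB the 72 h arrays lay above those of 24 h. At 12 h these were among the 5 genes that fell, at -0.57 ± 0.14 (adjusted p = 0.00898) and -0.63 ± 0.17 (adjusted p = 0.013). At 72 h AT1G70600 stood at -0.76 ± 0.14 (adjusted p = 0.000688), whereas RPL27AB, at -0.32 ± 0.17 (adjusted p = 0.17), was not called.

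The other members called at 12 h were the L9 gene AT1G33120 at -0.58 ± 0.16 (adjusted p = 0.0146), the L8 gene AT4G36130 at -0.43 ± 0.14 (adjusted p = 0.0342) and the L3 gene RP1 at -0.38 ± 0.11 (adjusted p = 0.0233). L3 shapes the peptidyl transferase centre, and RP1 was at -0.35 ± 0.11 at 24 h and -0.26 ± 0.11 (adjusted p = 0.0864) at 72 h, when it was not called. All 5 genes called at 12 h encode 60S proteins. Each of the 5 calls was lost on leaving out some single array. The count was 1 without 0 h replicate 2 or 12 h replicate 3, 3 without replicate 1 or 3 of 0 h or replicate 1 of 12 h, and 14 without 2 h replicate 2. Those 14 all fell and are 35% of the members, against 40.6% of all loci called in either direction in that fit. The share of all loci that fell in it is not given here, so these 2 shares are not alike.

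**Figure D2:**
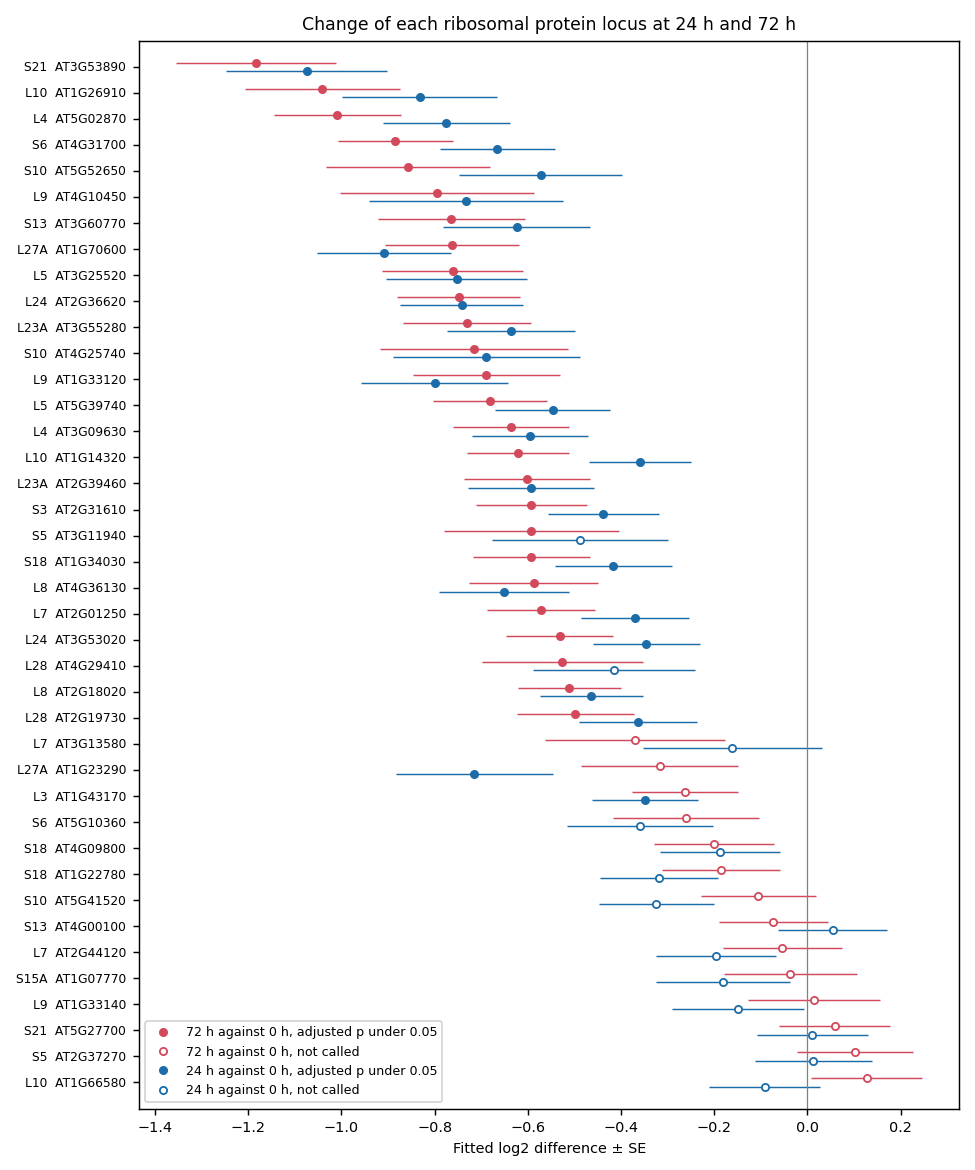
Fitted log2 difference from 0 h with its standard error (horizontal axis) for each of the 40 loci (rows, named by protein and locus) at 72 h (red) and 24 h (blue), sorted by the change at 72 h. Filled circles mark an adjusted p under 0.05 by limma; 26 loci are filled at each time, all of them left of 0.

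L10 held the 60S pair of paralogs that differed most at 72 h. L10 sits near the site where peptide bonds form, and its genes in Arabidopsis are linked to antiviral signalling and to UV-B responses. SAC52, found in a screen for suppressors of a dwarf mutant, measured 11.10, 11.24 and 11.27 at 0 h, 11.16, 11.26 and 11.17 at 2 h, 11.08, 11.09 and 10.95 at 12 h, 10.85, 10.84 and 10.84 at 24 h and 10.57, 10.65 and 10.53 at 72 h. Its arrays of 12 h, 24 h and 72 h lay below all those of 0 h, and the change was -0.62 ± 0.11 (adjusted p = 0.000417) at 72 h. RPL10B measured 9.65, 9.67 and 9.47 at 0 h, 9.64, 8.99 and 9.64 at 2 h, 9.34, 9.42 and 9.33 at 12 h, 8.71, 8.87 and 8.71 at 24 h and 8.71, 8.51 and 8.45 at 72 h. Its arrays of 12 h, 24 h and 72 h also lay below those of 0 h, replicate 2 of 2 h was low, and the change was -0.83 ± 0.17 (adjusted p = 0.00119) at 24 h and -1.04 ± 0.17 (adjusted p = 0.000183) at 72 h. SAG24, named for its expression in senescence, measured 11.16, 11.28 and 11.20 at 0 h, 11.10, 11.35 and 11.23 at 2 h, 11.02, 11.11 and 10.98 at 12 h, 11.08, 11.19 and 11.09 at 24 h and 11.22, 11.47 and 11.33 at 72 h. Its 72 h arrays overlapped those of 0 h, and the change was 0.13 ± 0.12 (adjusted p = 0.484).

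L9 also had genes that fell beside one that was not called. AT1G33120 measured 8.21, 8.25 and 8.28 at 0 h, 7.92, 8.36 and 7.85 at 2 h, 7.77, 7.82 and 7.42 at 12 h, 7.60, 7.47 and 7.28 at 24 h and 7.53, 7.55 and 7.61 at 72 h. Its arrays of 12 h, 24 h and 72 h lay below all of 0 h, and it changed by -0.80 ± 0.16 (adjusted p = 0.00105) at 24 h and -0.69 ± 0.16 (adjusted p = 0.00283) at 72 h. PGY2, in which mutations alter the upper and lower faces of leaves, measured 10.42, 10.57 and 10.35 at 0 h, 10.57, 10.69 and 10.20 at 2 h, 10.24, 10.33 and 10.10 at 12 h, 10.36, 10.21 and 10.32 at 24 h and 10.43, 10.58 and 10.38 at 72 h. Its 72 h arrays overlapped those of 0 h (0.01 ± 0.14 (adjusted p = 0.967)). The third gene, AT4G10450, fell, at -0.73 ± 0.21 at 24 h and -0.79 ± 0.21 (adjusted p = 0.00713) at 72 h. AT1G33120 and PGY2 are neighbours on chromosome 1, with 0 protein-coding loci between them in the RefSeq table of assembly TAIR10.1.

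Of the 3 L7 genes, AT2G01250 fell at 24 h (-0.37 ± 0.12 (adjusted p = 0.0209)) and 72 h (-0.57 ± 0.12 (adjusted p = 0.00116)). AT2G44120 was at -0.05 ± 0.13 and AT3G13580 at -0.37 ± 0.19 at 72 h, neither called. AT3G13580 was called at 72 h without 2 h replicate 2.

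In the 40S subunit the gene pair of S21 held the largest fall of the list beside a gene with almost no change. S21 acts late in maturation of the 40S subunit in yeast. AT3G53890 measured 11.63, 11.61 and 11.54 at 0 h, 11.52, 10.87 and 11.57 at 2 h, 11.13, 11.18 and 11.16 at 12 h, 10.76, 10.44 and 10.37 at 24 h and 10.43, 10.36 and 10.45 at 72 h. The 24 h and 72 h arrays lay below every earlier array, those of 12 h lay below all of 0 h, and replicate 2 of 2 h was low. The change was -1.07 ± 0.17 (adjusted p = 0.000207) at 24 h and -1.18 ± 0.17 (adjusted p = 8.15e-05) at 72 h. Its paralog AT5G27700 measured 10.30, 10.37 and 10.34 at 0 h, 10.21, 10.36 and 10.53 at 2 h, 10.34, 10.56 and 10.37 at 12 h, 10.33, 10.34 and 10.37 at 24 h and 10.34, 10.44 and 10.40 at 72 h. Its arrays overlapped those of 0 h at every later time, and the change at 72 h was 0.06 ± 0.12 (adjusted p = 0.791).

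S6 is the substrate of S6 kinase, which the TOR pathway activates in growing cells. RPS6 measured 11.30, 11.15 and 11.19 at 0 h, 11.28, 11.02 and 11.26 at 2 h, 11.02, 11.04 and 10.90 at 12 h, 10.66, 10.45 and 10.54 at 24 h and 10.21, 10.40 and 10.38 at 72 h. The arrays of 12 h, 24 h and 72 h lay below all of 0 h and those of 72 h below all of 24 h. RPS6 changed by -0.67 ± 0.12 (adjusted p = 0.000666) at 24 h and -0.88 ± 0.12 (adjusted p = 5.70e-05) at 72 h, when 54.2% of the 0 h signal remained. EMB3010, named for an embryo defect of its mutant, measured 10.77, 10.83 and 10.75 at 0 h, 10.57, 10.02 and 10.72 at 2 h, 10.49, 10.56 and 10.52 at 12 h, 10.52, 10.34 and 10.41 at 24 h and 10.49, 10.48 and 10.59 at 72 h. All its later arrays lay below those of 0 h, and replicate 2 of 2 h was the lowest array. The gene was not called, at -0.36 ± 0.16 (adjusted p = 0.0939) at 24 h and -0.26 ± 0.16 (adjusted p = 0.232) at 72 h, but was called at 12, 24 and 72 h without 2 h replicate 2.

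S10 lies at the head of the 40S subunit. RPS10B measured 10.64, 10.90 and 10.83 at 0 h, 10.68, 10.90 and 10.71 at 2 h, 10.65, 10.60 and 10.60 at 12 h, 10.63, 10.44 and 10.34 at 24 h and 10.66, 10.67 and 10.73 at 72 h. The 24 h arrays lay below all of 0 h, at -0.32 ± 0.12 (adjusted p = 0.0548), which was called without 2 h replicate 2. The 72 h arrays overlapped those of 0 h, and the change was -0.11 ± 0.12 (adjusted p = 0.602). AT5G52650 measured 9.95, 9.84 and 9.82 at 0 h, 9.85, 9.31 and 9.99 at 2 h, 9.78, 9.74 and 9.72 at 12 h, 9.48, 9.01 and 9.40 at 24 h and 8.86, 9.08 and 9.09 at 72 h. The arrays of 12 h, 24 h and 72 h lay below all of 0 h, and the change at 72 h was -0.86 ± 0.18 (adjusted p = 0.00129). The third gene, AT4G25740, changed by -0.69 ± 0.20 at 24 h and -0.72 ± 0.20 (adjusted p = 0.0109) at 72 h. At 24 h AT4G25740 and AT5G52650 were not called without 0 h replicate 1 or 24 h replicate 2.

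S18 contacts initiator transfer RNA in the head of the small subunit. PFL, whose mutant has pointed first leaves, measured 9.73, 9.81 and 9.72 at 0 h, 9.60, 9.95 and 9.71 at 2 h, 9.49, 9.66 and 9.62 at 12 h, 9.60, 9.35 and 9.36 at 24 h and 9.53, 9.62 and 9.55 at 72 h. Its arrays of 12 h, 24 h and 72 h lay below all of 0 h, yet no change was called, at -0.32 ± 0.13 (adjusted p = 0.0655) at 24 h and -0.19 ± 0.13 (adjusted p = 0.304) at 72 h, and without 2 h replicate 2 the gene was called at 24 h. RPS18C measured 9.30, 9.38 and 9.26 at 0 h, 9.26, 9.18 and 9.31 at 2 h, 9.37, 9.14 and 9.04 at 12 h, 9.10, 9.21 and 9.07 at 24 h and 9.08, 8.97 and 9.29 at 72 h. Only its 24 h arrays lay below all of 0 h, and the 72 h change was -0.20 ± 0.13 (adjusted p = 0.268). The third gene, AT1G34030, fell at 24 h (-0.42 ± 0.13 (adjusted p = 0.017)) and 72 h (-0.59 ± 0.13 (adjusted p = 0.00163)).

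In S13 and S5, too, 1 of 2 genes fell. For S13, AT3G60770 fell at 24 h (-0.62 ± 0.16) and 72 h (-0.76 ± 0.16 (adjusted p = 0.00137)), and RPS13A was at -0.07 ± 0.12 at 72 h. For S5, RPS5A, whose promoter is widely used to drive genes in embryos and dividing cells, fell at 72 h (-0.59 ± 0.19 (adjusted p = 0.0219)), and RPS5B was at 0.10 ± 0.13. The call for RPS5A was lost without replicate 1 or 2 of 0 h and without replicate 1 or 3 of 72 h (highest adjusted p = 0.0658). Of the proteins with 1 gene here, S3, at the entry of the messenger RNA channel, fell (AT2G31610, -0.59 ± 0.12 (adjusted p = 0.00111) at 72 h), and RPS15A for S15A was at -0.04 ± 0.14.

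Leaving out single arrays changed the count at 24 h by more than 1.5 times only for 24 h replicate 2, without which 17 members fell. Of the 26 calls at 24 h, 17 were kept on leaving out each array in turn, and 9 were lost for some array, those of RP1, SAC52, STV1, AT1G34030, AT4G10450, AT4G25740, AT5G52650, AT2G19730 and AT2G01250. At 72 h 24 of 26 calls were kept, and the exceptions were RPS5A and AT4G29410. Without 2 h replicate 2 the counts were 31 at 24 h and 29 at 72 h, against 49.1% and 51.2% of all loci called in either direction, and no member rose.

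Whether paralogs changed unequally was tested directly. For each of the 26 pairs of paralogs of one protein the log2 value of one was subtracted from that of the other on each array, and the 26 differences were fitted with all loci in limma, 28007 tests in all. Pairs of a protein with 3 genes, of which there are 5, share loci and are not independent of each other. The F test over time called 10 pairs, 38.5% of them, in 9 of the 16 proteins, against 44% of all tests. No pair was called at 2 h, 1 at 12 h, 5 at 24 h and 11 at 72 h, against 15.8%, 25%, 36.5% and 38.5% of all tests. The 11 pairs are 42.3% of the pairs. At 12 h and 24 h the pairs called were 3.85% and 19.2% of the pairs, below the share of all tests, most of which are of single loci. In each of the 11 pairs called at 72 h one gene fell and the other was not called, and in no pair were the genes called in opposite directions. The median size of the difference was 0.12, 0.07, 0.22 and 0.41 at 2, 12, 24 and 72 h.

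**Figure D3:**
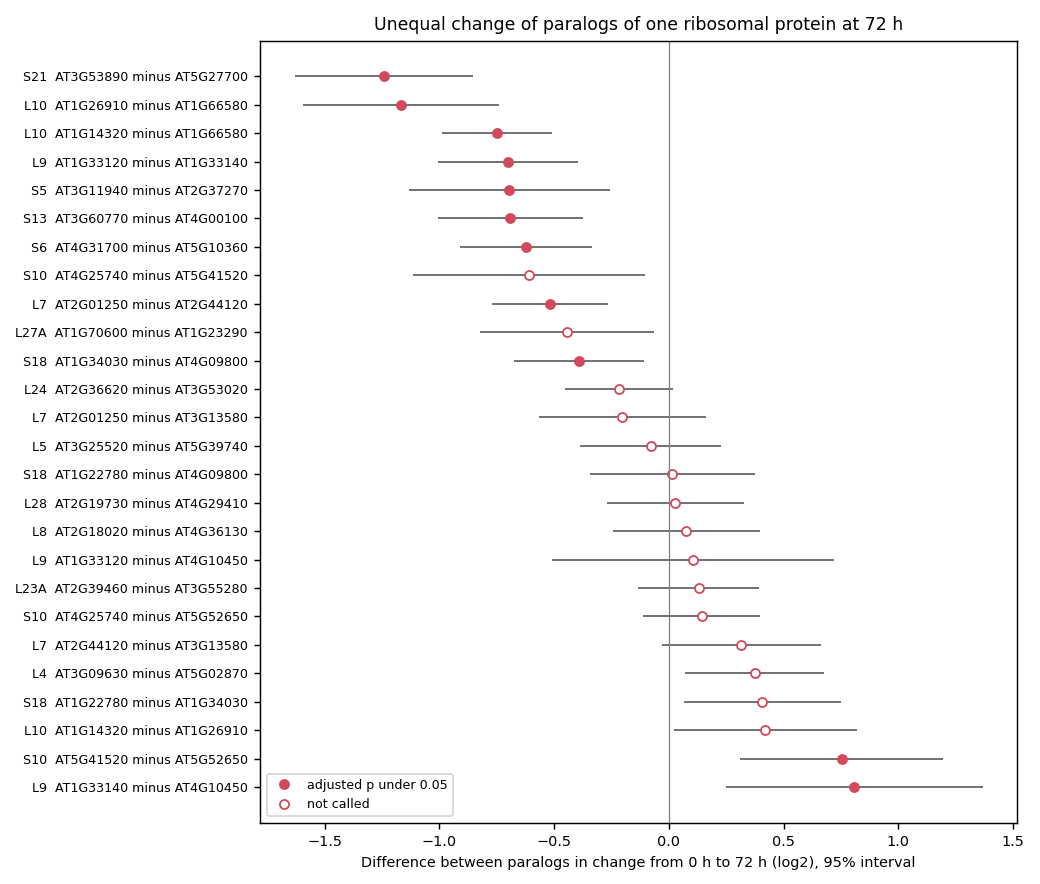
Difference between paralogs of one protein in the change at 72 h against 0 h (log2, first locus minus second, horizontal axis) with its 95% interval, for 26 pairs sorted by that difference. Filled circles mark the 11 pairs with an adjusted p under 0.05 by limma; the pair of S21 lies farthest from 0, at -1.24.

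The pair of S21 had the largest difference of the 26 at 72 h. AT3G53890 minus AT5G27700 was -0.53 ± 0.18 at 12 h, -1.09 ± 0.18 at 24 h and -1.24 ± 0.18 (95% interval -1.63 to -0.85, adjusted p = 8.44e-05) at 72 h. In L10, RPL10B minus SAG24 was -0.74 ± 0.20 at 24 h and -1.17 ± 0.20 (95% interval -1.60 to -0.74, adjusted p = 0.000315) at 72 h. SAC52 minus SAG24 reached -0.75 ± 0.11 (95% interval -0.99 to -0.51, adjusted p = 0.000103) at 72 h, after 0.01 ± 0.11 at 12 h, so that these 2 genes diverged after 12 h. The third L10 pair, SAC52 minus RPL10B, was 0.42 ± 0.19 (95% interval 0.02 to 0.82, adjusted p = 0.0942) and was not called.

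For S6 the pair is RPS6 minus EMB3010. It was 0.32 ± 0.13 at 2 h, which was not called and was 0.19 (adjusted p = 0.277) without replicate 2 of 2 h, and -0.62 ± 0.13 (95% interval -0.91 to -0.34, adjusted p = 0.00184) at 72 h. The neighbouring L9 genes differed by -0.65 ± 0.14 (95% interval -0.96 to -0.35, adjusted p = 0.00225) at 24 h and -0.70 ± 0.14 (95% interval -1.01 to -0.40, adjusted p = 0.00117) at 72 h, AT1G33120 minus PGY2. RPS10B minus AT5G52650 was 0.75 ± 0.21 (95% interval 0.31 to 1.19, adjusted p = 0.00933) at 72 h. In S13, AT3G60770 minus RPS13A was -0.68 ± 0.15 (95% interval -0.99 to -0.36, adjusted p = 0.00222) at 24 h and -0.69 ± 0.15 at 72 h.

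The remaining pairs called by the F test were of S5, L7 and S18. At 72 h RPS5A minus RPS5B was -0.69 ± 0.20 (95% interval -1.13 to -0.26, adjusted p = 0.0142), AT2G01250 minus AT2G44120 of L7 -0.52 ± 0.12 (95% interval -0.77 to -0.27, adjusted p = 0.00274) and AT1G34030 minus RPS18C -0.39 ± 0.13 (95% interval -0.67 to -0.11, adjusted p = 0.0282). PGY2 minus AT4G10450 of L9, at 0.81 ± 0.26 (95% interval 0.25 to 1.37, adjusted p = 0.0233), was called at 72 h without being called by the F test. The L24 pair, RPL24A minus STV1, was called at 24 h (-0.40 ± 0.11 (95% interval -0.63 to -0.16, adjusted p = 0.0108)) and not at 72 h (-0.22 ± 0.11).

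Of the calls by the F test, 6 stood under 22 alternative fits each: those of S21, S6, S13, both L10 pairs with SAG24, and AT1G33120 with PGY2. The call for RPS10B with AT5G52650 stood in 16 of 22, AT2G01250 with AT2G44120 in 20, AT1G34030 with RPS18C in 12 and RPS5A with RPS5B in 9. Leaving out replicate 1 of 72 h brought the pairs called by the F test to 6, and leaving out replicate 2 of 2 h to 19. Without that 2 h array the count was 4 at 12 h, 11 at 24 h and 17 at 72 h. Of all loci, fitted without that array, 40.6%, 49.1% and 51.2% were called at those times. The share of all tests called by the F test without these arrays is not given here. The single call at 12 h, that of S21, was lost on leaving out any one of 11 arrays, the 3 each of 0 h, 12 h and 72 h and replicates 2 and 3 of 24 h.

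For 16 pairs the F test called no difference at 3 arrays a time. The smallest differences over time were those of L23A and of 2 S18 genes. RPL23AA minus RPL23AB was 0.13 ± 0.12 (95% interval -0.13 to 0.39, adjusted p = 0.489) at 72 h, and PFL minus RPS18C 0.01 ± 0.17 (95% interval -0.35 to 0.38, adjusted p = 0.969). The intervals bound the difference and do not show that the genes changed alike. The pairs of L4, L5, L8, L27A and L28 were not called by the F test in the fit of all arrays. At 72 h their differences ran from -0.45 ± 0.18 for AT1G70600 minus RPL27AB to 0.37 ± 0.14 for AT3G09630 minus AT5G02870. Of the 22 alternative fits, the F test called the L4 pair in 4 and the L27A pair in 2. Among these was the fit without 2 h replicate 2 (F test adjusted p = 0.0169 for L4 and 0.00744 for L27A). The pairs of L5, L8 and L28 were called in 0 of 22. Cross-hybridisation between near-identical paralogs was not tested, as probe sequences were not used here.

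The rest of the protein synthesis machinery gives the setting. Of 156 further loci for cytosolic ribosomal proteins, 0 rose and 3 fell at 2 h, 1 rose and 16 fell at 12 h, 1 rose and 96 fell at 24 h, and 0 rose and 100 fell at 72 h. The median change at 72 h was -0.59 for the 40 members and -0.46 for these 156. The largest of these falls at 72 h were AT4G30800 at -3.23 ± 0.64 (adjusted p = 0.000958), RPSAb, a gene for the small subunit protein SA, at -2.58 ± 0.41 (adjusted p = 0.000172) and AT1G41880 at -2.00 ± 0.27 (adjusted p = 4.80e-05). At 2 h the falls were RPSAb at -1.47 ± 0.41 (adjusted p = 0.0243), AT5G59240 at -0.72 ± 0.18 (adjusted p = 0.0133) and AT5G67510 at -0.57 ± 0.16 (adjusted p = 0.0286). Without 2 h replicate 2 RPSAb was at -0.76 (adjusted p = 0.00161) at 2 h, and 48 of the 156 fell at 12 h. In that fit 40.6% of all loci were called at 12 h in either direction.

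Genes for ribosome assembly factors, which process ribosomal RNA and load proteins in the nucleolus, had the following calls. Of 30, 2 rose and 3 fell at 2 h, 3 rose and 9 fell at 12 h, 3 and 12 at 24 h, and 3 and 13 at 72 h. The median at 2 h was -0.16 for the members and -0.40 for the assembly factors, and at 12 h -0.18 for the members and -0.58 for the assembly factors. On the 3 arrays of 2 h the median change of the assembly factors was -0.01, -0.74 and -0.24, the lowest on replicate 2. Without that array the median of the assembly factors at 2 h was -0.12, with 1 rise and 2 falls, and at 12 h, 24 h and 72 h 20, 19 and 18 of them fell. In that fit 40.6%, 49.1% and 51.2% of all loci were called in either direction at 12, 24 and 72 h. The timing of the lists was not tested. At 2 h AT1G31660, the homolog of yeast ENP1, changed by -0.55 ± 0.14 (adjusted p = 0.0131), RID2, needed for ribosomal RNA processing, by -0.46 ± 0.12 (adjusted p = 0.0134) and EMB2762 by -0.44 ± 0.14 (adjusted p = 0.0457). The rises at 2 h were AT2G27200, the homolog of yeast LSG1, at 0.77 ± 0.18 (adjusted p = 0.00951) and AT4G31420, known as REIL1, at 0.63 ± 0.19 (adjusted p = 0.0378). Without 2 h replicate 2 EMB2762 (adjusted p = 0.0782) and AT4G31420 (adjusted p = 0.0692) were not called at 2 h. In yeast LSG1 and REI1 act on cytoplasmic 60S particles.

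At 72 h NOP56, of the particles that methylate ribosomal RNA, stood at -1.64 ± 0.29 (adjusted p = 0.000365), AT1G31660 at -1.37 ± 0.14 (adjusted p = 2.96e-06) and AT1G52930 at -1.33 ± 0.34 (adjusted p = 0.00601). AT4G31420 was up by 1.29 ± 0.19 (adjusted p = 0.000102), the RNA helicase gene PRH75 by 1.16 ± 0.12 (adjusted p = 4.75e-06) and AT2G27200 by 0.61 ± 0.18 (adjusted p = 0.016).

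**Figure D4:**
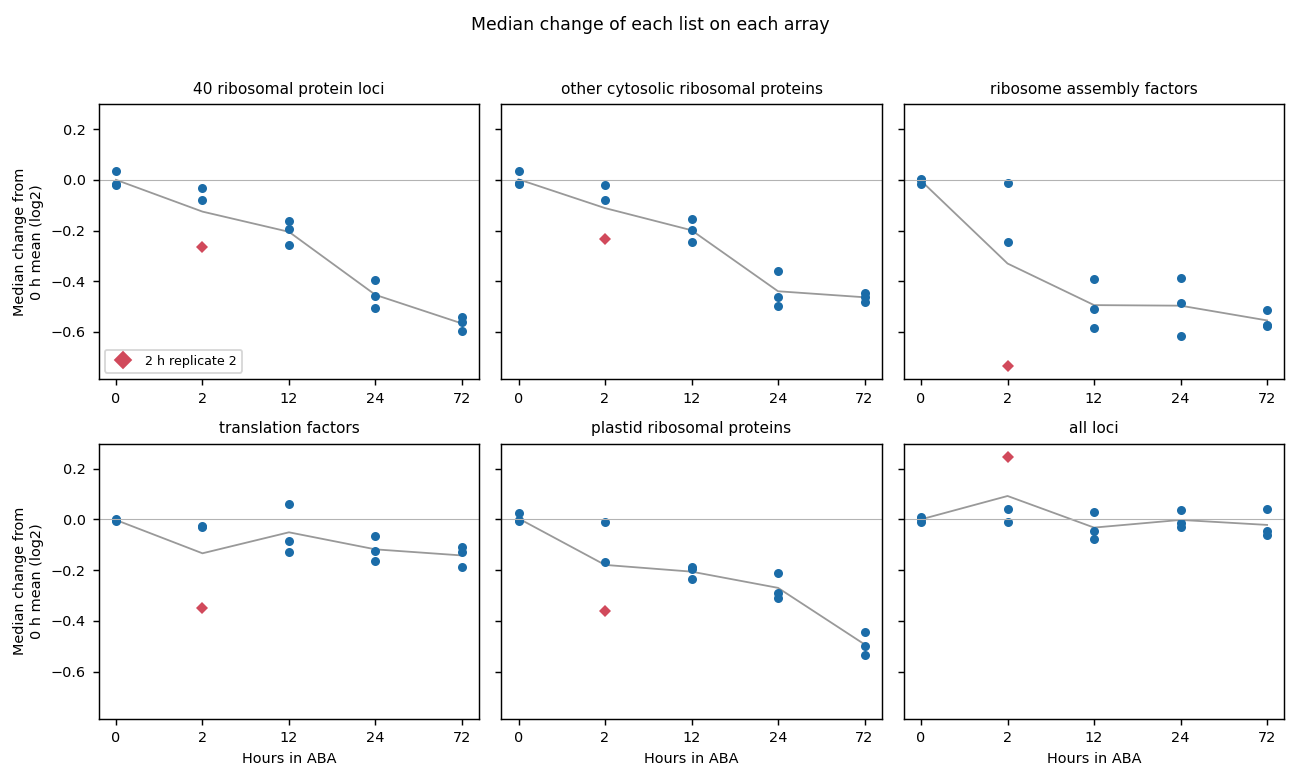
Median over each list of the change of its loci from their 0 h means (log2, vertical axis) on each of 15 arrays (points) by hours in ABA (horizontal axis, evenly spaced), with lines through the means of 3 arrays. The medians of the 40 members lie between -0.60 and -0.54 at 72 h, those of all loci between -0.06 and 0.04; the diamond is 2 h replicate 2.

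Translation initiation and elongation factors were mixed, with 6 rises and 12 falls among 35 at 72 h and a median of -0.15. Without 2 h replicate 2 there were 10 rises and 14 falls at 72 h, when 51.2% of all loci were called. At 2 h 1 rose, ELF5A-3 at 0.57 ± 0.14 (adjusted p = 0.011). At 72 h ELF5A-1, also for an eIF5A, rose by 1.44 ± 0.19 (adjusted p = 3.81e-05), eEF-1Bb1, for an exchange factor of elongation, by 0.84 ± 0.13 (adjusted p = 0.000163) and TIF3H1, for a subunit of eIF3, by 0.46 ± 0.12 (adjusted p = 0.00664). Lower were EIF4E, for the cap-binding factor, at -1.01 ± 0.15 (adjusted p = 9.63e-05), AT1G07930 at -1.02 ± 0.15 (adjusted p = 0.000108) and eIFiso4G2, for an isoform of the scaffold that binds it, at -1.24 ± 0.30 (adjusted p = 0.00424).

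Among 14 genes of the TOR pathway and of regulators of ribosomal genes, 1 rose and 1 fell at 2 h, and 6 rose and 5 fell at 72 h. The S6 kinase genes fell: PK1 was at -1.60 ± 0.18 (adjusted p = 2.11e-05) at 2 h, when none of the 40 members was called by limma, and S6K2 at -1.11 ± 0.21 (adjusted p = 0.00085) at 72 h. LST8-1, for a partner of TOR, rose at 2 h (0.47 ± 0.15 (adjusted p = 0.0443)), a call lost without 2 h replicate 2 (adjusted p = 0.0828). At 72 h RAPTOR1, for the other partner, rose by 0.86 ± 0.18 (adjusted p = 0.00164), NAC082, which mediates the response to ribosomal stress, by 0.86 ± 0.12 (adjusted p = 5.14e-05) and PUR ALPHA-1, for a protein that binds promoters of ribosomal protein genes, by 0.84 ± 0.14 (adjusted p = 0.000194). RACK1C and RACK1B, for a scaffold on the 40S subunit, were at -1.66 ± 0.24 (adjusted p = 8.92e-05) and -1.33 ± 0.14 (adjusted p = 4.74e-06).

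Nuclear genes for plastid ribosomal proteins also fell, 0 of 29 at 2 h, 3 at 12 h, 11 at 24 h and 20 at 72 h, with 1 rise at 72 h and a median of -0.45. Without 2 h replicate 2 the count at 12 h was 10, when 40.6% of all loci were called in either direction. RPL12-A stood at -1.53 ± 0.20 (adjusted p = 3.65e-05), PRPL11 at -1.34 ± 0.19 (adjusted p = 5.80e-05) and RPS1 at -1.07 ± 0.18 (adjusted p = 0.000233) at 72 h, and RPL12-C rose by 0.51 ± 0.16 (adjusted p = 0.0202).

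Markers of other processes moved beside these changes. Of 5 cell cycle markers, none was called at 2 h or 12 h by limma (1 fell at 2 h and 2 rose at 12 h without 2 h replicate 2), 1 fell at 24 h and all 5 at 72 h, when their median change was -0.76. Their median level was 5.19 to 5.38 on the 72 h arrays and 5.76 to 6.31 on those of 0 h. CYCB1;1, for a cyclin of dividing cells, was at -0.76 ± 0.16 (adjusted p = 0.00148), CYCB1;4 at -0.91 ± 0.17 (adjusted p = 0.000598) and the spindle checkpoint gene MAD2 at -0.97 ± 0.14 (adjusted p = 7.28e-05). Of 3 root hair markers, 2, 3, 3 and 1 fell at 2, 12, 24 and 72 h, and MAN7, for a mannanase active in the endosperm, rose at all 4 times, with EPR1, the other endosperm marker, called at no time in the fit of all arrays and at 12 h and 24 h without 2 h replicate 2. The part of these tissues and of cell division in the decline of the ribosomal protein genes was not tested.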

How the data were processed

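Expression was measured on 15 Affymetrix arrays of biotin-labelled cDNA made from 50 ng of total RNA, per the labels. The authors deposited log2 values from RMA, per the submitters' processing notes. This method removes background, equalizes the quantiles of arrays and condenses probes to probe sets, so that shifts common to most loci are reduced. The deposited arrays still differed in spread, most of all 2 h replicate 2. No RMA version, array design or genome build was given in the sources used here. The number of arrays limits the precision.

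Of 35986 probe sets, named by locus, the one with the highest mean over 15 arrays was kept for each of 27981 loci. The members had 71 probe sets. Of the 21 members with several, 15 had probe sets of different values, and only these can show a disagreement. None of the 15 differed by 0.5 or more in a change. The largest spread was 0.24, for RPL23AA, whose probe sets changed by -0.59 and -0.35 at 24 h. Its limma call at 24 h was lost with the probe set of the lowest mean (adjusted p = 0.0557). Groups were the 5 times in the labels. With R 4.3.3 and the package limma 3.58.1, linear models with empirical Bayes moderation (lmFit, eBayes) were fitted over all arrays with 1 mean per time, two-sided, with Benjamini-Hochberg adjustment over all loci and calls at adjusted p under 0.05. Values after ± are standard errors of the fit (n = 3 per time). Paralogs were compared as differences within arrays in the same model.

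Each member is named. Values of single arrays are given for up to 3 called rises and 3 called falls of largest size at each time, the 6 called pairs with the largest range over time and the 2 pairs with the smallest. Of each other list up to 3 called rises and falls are named at 2 h and 72 h. The members and lists were chosen with earlier results of these data known. Alternatives were a replicate block, repeated quantile normalization, centring, leaving out the lowest 25% of loci, an intensity trend, array weights, the probe set with the lowest mean, adjusted p under 0.01, only the times compared, an exact permutation test and leaving out each array. The main fit did not pair arrays by replicate number. Protein and promoter sequences were not used here.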

Additional observations from a re-analysis of the deposited data

How the results depend on the processing

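In the 4 comparisons with 0 h no member rose under the alternatives run. At 72 h against 24 h array weights called 2 members higher and 2 lower, where no member had been called. Counts at 24 h and 72 h against 0 h kept within 1.5 times of 26, except 17 at 24 h with adjusted p under 0.01 and 17 without 24 h replicate 2. Counts at 12 h against 0 h (5 members) and 24 h against 12 h (3 members) moved most, and the cause was not tested beyond what fewer arrays or a stricter threshold imply.

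The replicate number as a block gave 1 member at 24 h against 12 h and moved no other count by over 1.5 times. Deviations of arrays with the same number correlated at -0.17 to 0.27. Among the replicate 2 arrays of 0, 2, 12 and 72 h the correlations ran from 0.13 to 0.27. Arrays of different numbers were not compared in this way, so the check cannot decide whether the numbers pair the arrays. Repeated quantile normalization gave 9 members at 24 h against 12 h. Centring raised every locus by 0.12 for 2 h against 0 h, members and all loci alike, and so gave the members a 2 h median of -0.04. It also gave 8 members at 12 h, 0 pairs at 12 h and 0 members at 24 h against 12 h. Leaving out the lowest 25% of loci gave 2 pairs at 12 h and 7 members at 24 h against 12 h. The intensity trend gave 12 members and 3 pairs at 12 h, 10 members at 24 h against 12 h and 1 at 72 h against 24 h. Array weights gave a 2 h median of -0.02, 20 members and 4 pairs at 12 h, 12 pairs at 24 h, 18 at 72 h, 1 member at 12 h against 2 h, 22 at 24 h against 12 h, 4 at 72 h against 24 h and 19 pairs by the F test. Adjusted p under 0.01 gave 1 member and 0 pairs at 12 h and 0 members at 24 h against 12 h. Only the arrays compared gave 13 members and 4 pairs at 12 h, 9 pairs at 24 h, 17 at 72 h and 12 members at 24 h against 12 h. The exact permutation test of 0 h against the 12 later arrays (455 splits, smallest p 0.0022) passed 0.05 unadjusted in 4 pairs, against 10 by the F test. These were the pairs of S21, S13 and L24 and AT1G33120 with PGY2. Of them the L24 pair was not called by the F test (adjusted p = 0.0679). The other pairs called by the F test did not pass, among them that of S6 (exact p = 0.554). The exact test pools all later times. The probe set with the lowest mean moved no count by over 1.5 times.

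Leaving out single arrays, members called ranged over 0 to 1 at 2 h, 1 to 14 at 12 h, 17 to 31 at 24 h, 24 to 29 at 72 h, 0 to 2 at 12 h against 2 h, 0 to 15 at 24 h against 12 h and 0 to 0 at 72 h against 24 h, and 22 to 30 by the F test. Pairs ranged over 0 to 2, 0 to 4, 4 to 11 and 9 to 17 at 2, 12, 24 and 72 h, and 6 to 19 by the F test. Medians ranged over -0.17 to -0.05 at 2 h, -0.22 to -0.17 at 12 h, -0.48 to -0.42 at 24 h and -0.60 to -0.55 at 72 h. The highest counts at 12, 24 and 72 h came without 2 h replicate 2.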
